A study of Mus musculus with 12 samples.

Results

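Sulfur amino acid and taurine metabolism was described through 9 genes: Csad, Cdo1, Cth, Cbs, Bhmt, Gnmt, Mat1a, Ahcy and Slc6a6. They are 9 of the 22180 genes with an unambiguous symbol on whole-transcript mouse arrays. Each gene was represented by a probe set whose only symbol was that gene, selected on the highest mean signal over all 12 arrays. That choice mattered for 1 gene, since Ahcy had 2 probe sets and the others 1 each. The genes themselves were chosen with earlier results of these arrays known, so the values below describe them and do not test the choice.

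The liver takes up methionine, turns it into the methyl donor S-adenosylmethionine, and recovers homocysteine after methyl groups have been passed on. Homocysteine is either methylated back to methionine or sent through transsulfuration to cysteine. Cysteine is then used for protein and glutathione, broken down to sulfate, or oxidised and decarboxylated to hypotaurine and taurine, which conjugates bile acids in mouse liver.

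Livers were taken from male C57BL/6 mice, and total RNA was hybridised with 1 animal per array and 3 animals per group. The 4 groups were wild-type (WT) mice on regular chow, mice labelled as Ahnak knockouts (KO) on chow, WT mice on a high-fat diet (HFD) and KO mice on HFD. Mice were put into weight-matched groups and fed for 8 weeks, with HFD supplying 60% fat. Ahnak encodes a very large scaffold protein. The labels do not say which part of the gene was deleted, what age the mice were, or whether KO and WT mice were littermates. The study asked how loss of Ahnak alters hepatic gene expression on either diet.

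Values are deposited log2 signals, in which a difference of 1 is a doubling. Ahnak, read by 1 probe set, lay at 6.50 to 6.83 in WT and 6.38 to 6.74 in KO on chow, and at 6.74 to 7.26 in WT and 6.46 to 6.62 in KO on HFD. The genotypes overlapped on chow, where KO minus WT was -0.04 with a limma adjusted p above 0.05. On HFD they did not overlap, and KO minus WT was -0.48 with a limma adjusted p under 0.05. A probe set outside the deleted part checks nothing, so genotypes are given as labelled. The 3 WT HFD arrays stood apart from all others, with scores of 30.0 to 32.3 on the first principal component (32.2% of the variance) against -18.5 to -3.95 for the other 9. Comparisons of KO with WT on HFD, of HFD with chow in WT, and the interaction all use those arrays, and the group cannot be left out of any of them. The mean signal of 6 hepatocyte markers was 13.34 to 13.48 on every array, and that of 3 adipocyte markers 4.99 to 5.24. In bulk RNA, fewer cells of a type and less RNA per cell cannot be told apart. Signals of different probe sets are not levels on a common scale, so each gene is compared only with itself.

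In WT liver, mean signals on HFD were below those on chow for 8 of the 9 genes, and Csad had the largest difference of the 9. HFD lowered Csad, Cth, Cbs and Slc6a6 in WT mice, 4 of 9, with no gene called higher. A gene was called when its limma p, adjusted over all 22180 genes by the Benjamini-Hochberg method, was under 0.05, which 6.96% of all genes reached in this comparison. On HFD, KO liver had higher Csad, Cth and Cbs than WT liver, 3 of 9 against 10.5% of all genes, and none lower. The interaction, which asks whether the diet effect differed with genotype, was called for Csad, 1 of 9 against 3.53% of all genes. No gene was called between KO and WT on chow by limma (0.00902% of all genes called), and none between the diets in KO liver (0.243%). At an unadjusted limma p under 0.05 there were 4 of the 9 in each of these comparisons. Shares of all genes at that unadjusted threshold were not counted in any comparison, so such counts are not set against a share.

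The median log2 difference of the 9 genes was -0.19 for HFD against chow in WT and 0.18 for KO against WT on HFD, where the medians of all genes were 0.0033 and 0.0011. In KO, HFD minus chow had a median of -0.23 (all genes 0.0037) and was negative for 9 of 9 genes without a call. On chow, KO minus WT had a median of 0.14 (all genes -0.0034) and was positive for 8 genes, Csad being the exception. The share of all genes with each sign was not counted, so these sign counts have no reference.

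**Figure D1:**
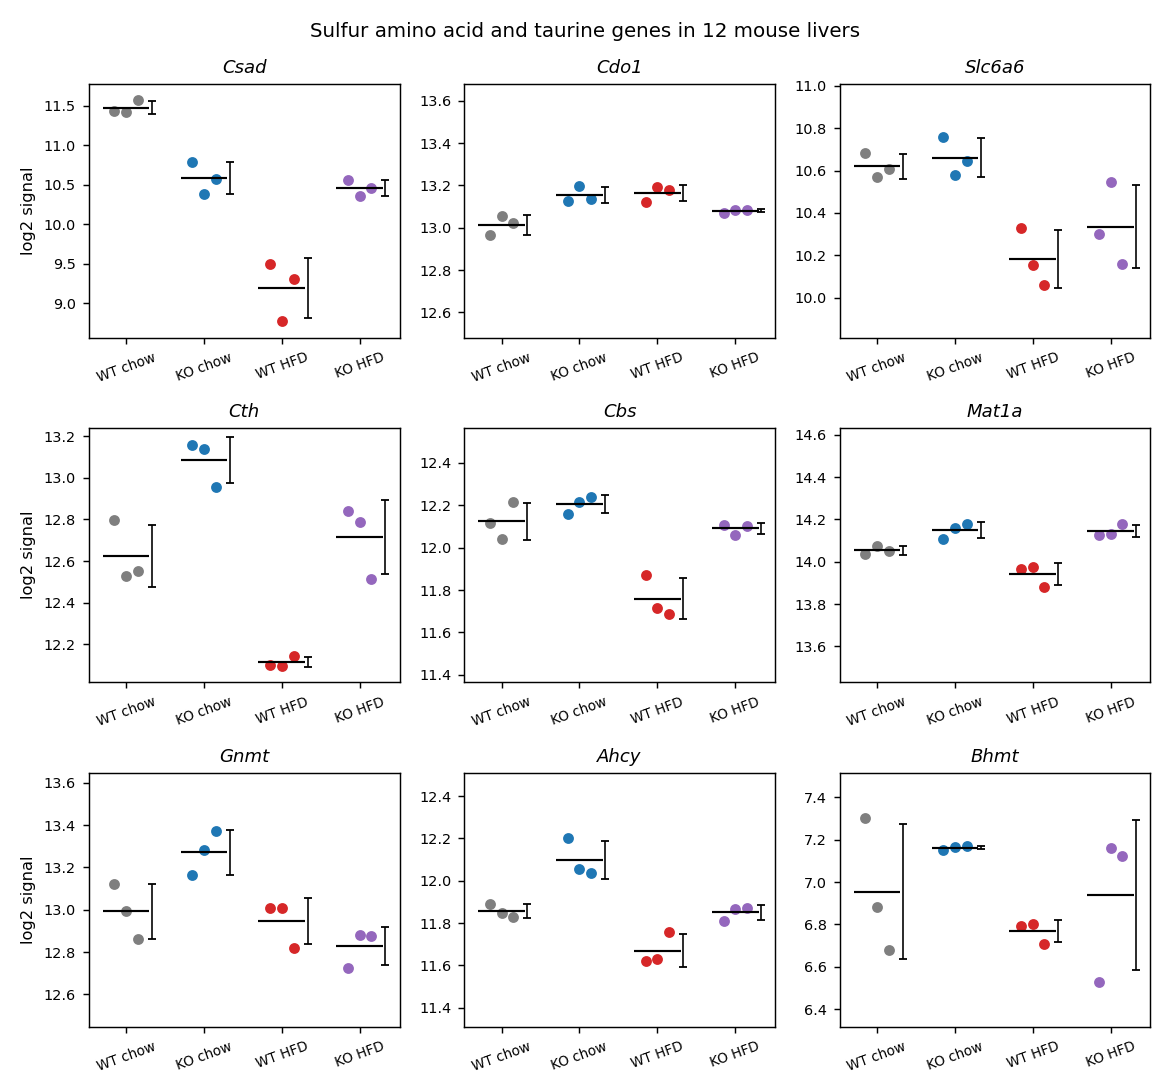
Log2 signal of each of the 9 genes on every array (points, 3 mice per group) with group means, by genotype and diet. Csad was lowest on the 3 WT HFD arrays, 8.77 to 9.50, and highest on the 3 WT chow arrays, 11.43 to 11.57.

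Csad encodes cysteine sulfinate decarboxylase, which makes hypotaurine, the precursor of taurine. The gene spans chr15:102176997-102205052 on the GRCm38.p6 build. The chow-fed WT arrays read 11.43, 11.43 and 11.57, and the HFD-fed WT arrays 9.50, 8.77 and 9.31. In KO they were 10.79, 10.39 and 10.57 on chow and 10.56, 10.35 and 10.46 on HFD. WT chow lay above every other array, WT HFD below every other array, and the KO groups overlapped each other between them. HFD lowered Csad in WT by 2.28 ± 0.16 (SE of the fit; 95% interval of the difference -2.64 to -1.93), a 4.87-fold decrease with a limma adjusted p of 1.05e-05. In KO the same difference was -0.12 ± 0.16 (interval -0.48 to 0.23, adjusted p 0.887). The interaction was 2.16 ± 0.23 (interval 1.66 to 2.66, limma adjusted p 0.000405).

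The genotype difference in Csad had opposite signs on the diets. On HFD, KO liver was 1.27 ± 0.16 above WT, 2.41-fold, with a limma adjusted p of 0.000522. On chow, KO liver was at -0.89 ± 0.16 relative to WT (interval -1.25 to -0.54), with no overlap between arrays. That chow difference had an unadjusted limma p of 0.00013 and an adjusted p of 0.141, so it was not called. The Csad calls in WT diet, in KO against WT on HFD and in the interaction held when any single array was left out. Without the second WT HFD mouse, the lowest Csad value of all, the WT diet difference was -2.07.

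Promoter windows from RefSeq, 250 bases before to 50 after a start site on GRCm38.p6, were held for 5 of the 9 genes: Csad, Cbs, Ahcy, Bhmt and Gnmt. Both Csad start sites and that of Cbs are printed because these genes were called in the same comparisons. All windows lie on the minus strand and read 5′ to 3′ along the gene, with capitals marking matches to the motifs searched.
Csad, distal start, chr15:102205003-102205302: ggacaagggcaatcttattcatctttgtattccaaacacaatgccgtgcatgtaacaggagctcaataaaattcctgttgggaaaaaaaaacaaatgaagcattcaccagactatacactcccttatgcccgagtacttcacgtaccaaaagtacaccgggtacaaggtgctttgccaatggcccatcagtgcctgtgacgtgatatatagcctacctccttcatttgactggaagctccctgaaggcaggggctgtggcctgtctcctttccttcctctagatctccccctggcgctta
Csad, internal start, chr15:102188994-102189293: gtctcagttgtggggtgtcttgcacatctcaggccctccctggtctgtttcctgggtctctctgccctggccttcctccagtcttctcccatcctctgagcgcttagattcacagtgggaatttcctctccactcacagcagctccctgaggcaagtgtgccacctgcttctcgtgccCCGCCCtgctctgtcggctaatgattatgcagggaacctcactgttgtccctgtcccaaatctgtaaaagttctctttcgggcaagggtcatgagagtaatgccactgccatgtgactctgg
Cbs, chr17:31637156-31637455: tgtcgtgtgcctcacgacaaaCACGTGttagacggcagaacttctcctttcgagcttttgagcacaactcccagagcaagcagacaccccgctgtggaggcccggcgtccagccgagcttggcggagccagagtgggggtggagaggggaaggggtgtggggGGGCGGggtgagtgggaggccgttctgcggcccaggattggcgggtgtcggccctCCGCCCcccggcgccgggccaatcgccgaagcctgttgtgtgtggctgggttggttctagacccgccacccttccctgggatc

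Motifs were searched on both strands. The E-box, CACGTG, is held by 7.15% of the 32851 mouse windows of this length. The antioxidant response element, written TGACNNNGC, is held by 12.4%. The C/EBP-ATF element, TGATGNAA, was found in 3.97%, and the GC box, GGGCGG, in 35.7%. The nuclear receptor half-site, AGGTCA, was in 16.3%, and the STAT5 element, TTCNNNGAA, in 8.30%. The distal Csad window held 0 matches, and the internal one held a GC box at -72 to -67, counting -1 as the base before the start. The Cbs window held an E-box at -229 to -224 and GC boxes at -88 to -83 and -33 to -28. The Bhmt window held 3 nuclear receptor half-sites, the Gnmt window 1, and the Ahcy window a GC box and 1 half-site. A match is a description of letters, and no match says nothing about a factor.

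Cdo1 encodes cysteine dioxygenase, which makes the substrate of Csad from cysteine. It spans chr18:46713193-46728502. The chow-fed WT arrays read 12.96, 13.06 and 13.02, and the HFD-fed WT arrays 13.12, 13.19 and 13.18. KO values were 13.13, 13.20 and 13.14 on chow and 13.07, 13.09 and 13.08 on HFD. The span of all 12 arrays was far narrower than for Csad, and WT HFD overlapped KO chow. Cdo1 was not called in any comparison with the settings used throughout. The WT diet difference was 0.15 ± 0.07 (interval -0.004 to 0.30, limma adjusted p 0.257), opposite in sign to Csad. It was called with trend and robust settings in the variance model, at an adjusted p of 0.0454.

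Slc6a6 encodes the plasma membrane taurine transporter, and spans chr6:91684048-91759063. WT chow arrays read 10.68, 10.57 and 10.61 and WT HFD arrays 10.33, 10.16 and 10.06. KO arrays read 10.76, 10.58 and 10.64 on chow and 10.30, 10.55 and 10.16 on HFD. Every HFD array of a genotype lay below every chow array of it, while the genotypes overlapped on both diets. HFD lowered Slc6a6 in WT by 0.44 ± 0.11, 1.36-fold, with a limma adjusted p of 0.0318. In KO the difference was -0.33 ± 0.11 (interval -0.56 to -0.09, adjusted p 0.402), and the interaction was 0.11 ± 0.15 (interval -0.22 to 0.45, adjusted p 0.777). The WT call was lost without any 1 of the 3 WT chow arrays or the second or the third WT HFD array, with adjusted p up to 0.117, and at 0.0511 with arrays centred on their medians.

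Cth encodes cystathionine gamma-lyase, which releases cysteine from cystathionine, and spans chr3:157894248-157925081. WT arrays read 12.80, 12.53 and 12.55 on chow and 12.10, 12.10 and 12.14 on HFD. KO arrays read 13.16, 13.14 and 12.96 on chow and 12.84, 12.79 and 12.51 on HFD. The order was KO chow, then KO HFD and WT chow, which overlapped, then WT HFD, which lay below all others. HFD lowered Cth in WT by 0.51 ± 0.11, 1.43-fold, with a limma adjusted p of 0.0148. The call was lost without the first WT chow array (0.0549) or the second WT HFD array (0.0534). On HFD, Cth was 0.60 ± 0.11 higher in KO than in WT, 1.52-fold, with a limma adjusted p of 0.00394, and this call held without any single array.

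Unlike Csad, Cth kept the same sign of genotype difference on both diets. On chow KO lay 0.46 ± 0.11 above WT with no overlap (interval 0.22 to 0.70, limma adjusted p 0.312). In KO the diet difference was -0.37 ± 0.11 (interval -0.61 to -0.14, adjusted p 0.292). The interaction was 0.14 ± 0.15 (interval -0.19 to 0.47, adjusted p 0.705), so a difference of diet effects between genotypes was not detectable.

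Cbs encodes cystathionine beta-synthase, the entry step of transsulfuration, and spans chr17:31612623-31637233. WT arrays read 12.12, 12.04 and 12.22 on chow and 11.87, 11.72 and 11.69 on HFD. KO arrays read 12.16, 12.22 and 12.24 on chow and 12.11, 12.06 and 12.10 on HFD. WT HFD lay below the other 3 groups, of which WT chow overlapped both KO groups. HFD lowered Cbs in WT by 0.37 ± 0.08, 1.29-fold (limma adjusted p 0.0182), and KO exceeded WT on HFD by 0.33 ± 0.08, 1.26-fold (limma adjusted p 0.0210). The WT diet call was lost without the third WT chow array or the second or the third WT HFD array, with adjusted p of 0.0727 to 0.0786. The KO call was lost without the second or the third WT HFD array or the third KO HFD array, at 0.0546 to 0.0813, and with arrays centred on their medians, at 0.0582. Fitting only the arrays compared left both Cbs differences uncalled, at 0.0741 and 0.0695. The interaction was 0.25 ± 0.11 (interval 0.0025 to 0.50, limma adjusted p 0.283).

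**Figure D2:**
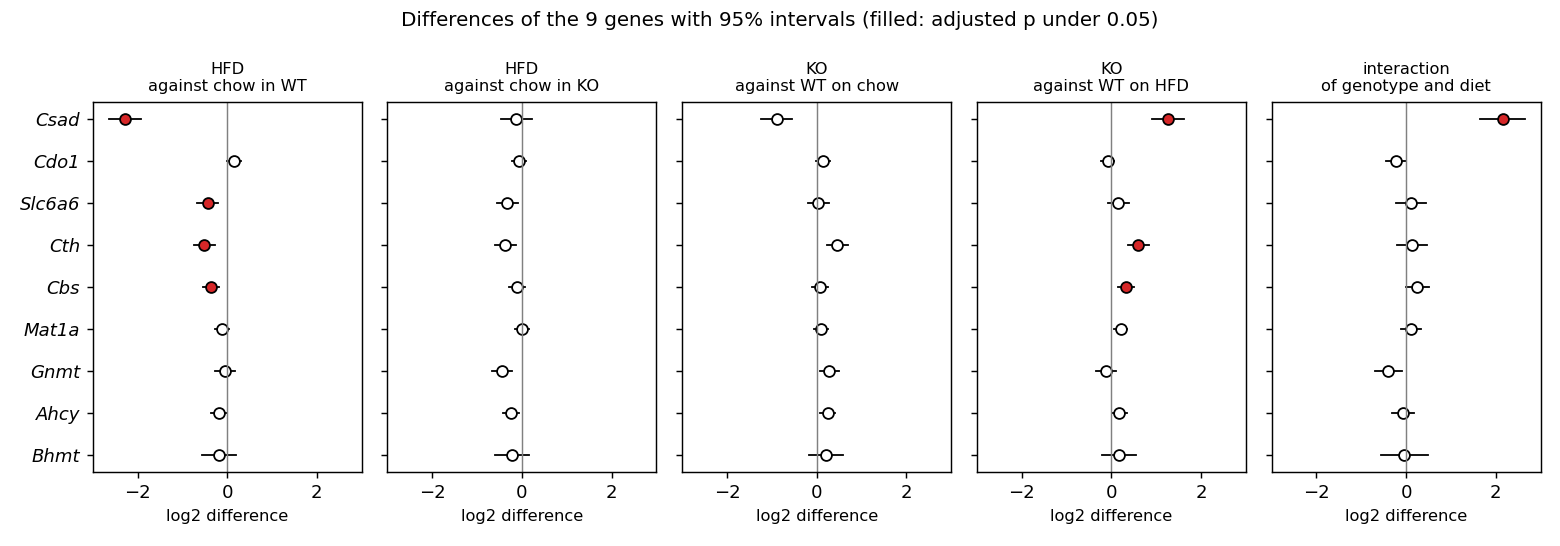
Log2 difference of each of the 9 genes in the comparisons of genotype and diet, with 95% intervals from limma, filled where called. Csad moved by -2.28 with HFD in WT and -0.12 in KO, and the largest difference among the other 8 genes was 0.60, for Cth in KO against WT on HFD.

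Mat1a encodes the liver form of methionine adenosyltransferase, which makes S-adenosylmethionine, and spans chr14:41105012-41124428. WT arrays read 14.04, 14.08 and 14.05 on chow and 13.97, 13.97 and 13.88 on HFD. KO arrays read 14.11, 14.16 and 14.18 on chow and 14.13, 14.13 and 14.18 on HFD. Every KO array lay above every WT array. These values sit close to 14.36, the highest signal of any probe set. Mat1a was not called with the settings used throughout. KO minus WT was 0.21 ± 0.07 on HFD (interval 0.05 to 0.36, limma adjusted p 0.0912) and 0.09 ± 0.07 on chow (adjusted p 0.835). The HFD difference was called with trend and robust settings in the variance model (limma adjusted p 0.00299) and when only genes above the median signal were tested (0.0244).

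Gnmt encodes glycine N-methyltransferase, which disposes of surplus S-adenosylmethionine, and spans chr17:46725664-46729211. KO chow arrays read 13.16, 13.28 and 13.37 and KO HFD arrays 12.72, 12.88 and 12.88. WT arrays read 13.12, 12.99 and 12.86 on chow and 13.01, 13.01 and 12.82 on HFD. KO chow lay above every other group, and the other 3 overlapped their neighbours. In KO, HFD minus chow was -0.44 ± 0.10 (interval -0.66 to -0.23, limma adjusted p 0.124), against -0.05 ± 0.10 in WT (adjusted p 0.853). The interaction was -0.40 ± 0.14 (interval -0.70 to -0.09, limma adjusted p 0.154). Neither was called, though both were with trend and robust settings in the variance model, at adjusted p of 0.0136 and 0.0455.

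Ahcy encodes S-adenosylhomocysteine hydrolase, which releases homocysteine, and spans chr2:155059310-155074497. Its brighter probe set, with a mean of 11.87 over all arrays, read 11.89, 11.85 and 11.83 in WT chow and 11.62, 11.63 and 11.76 in WT HFD. KO read 12.20, 12.06 and 12.04 on chow and 11.81, 11.87 and 11.87 on HFD. KO chow lay above all other groups, WT HFD lay below them, and the remaining groups overlapped. No Ahcy difference was called. KO minus WT was 0.24 ± 0.08 on chow (limma adjusted p 0.558) and 0.18 ± 0.08 on HFD (adjusted p 0.184). HFD minus chow was -0.19 ± 0.08 in WT (adjusted p 0.204) and -0.25 ± 0.08 in KO (adjusted p 0.358).

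Which locus the brighter Ahcy probe set reads is uncertain. Probe sets are numbered in genomic order, and 98.4% of adjacent named ones share a chromosome. The brighter one lies between Cd96 and Nectin3, with 0 of its 10 neighbours on chromosome 2 and most on chromosome 16. The dimmer one, with a mean of 7.46, lies between Eif2s2 and 2310005A03Rik, with 10 of 10 neighbours on chromosome 2. Its readings were 7.71, 7.40 and 7.29 in WT chow, 7.41, 7.83 and 7.74 in KO chow, 7.25, 7.32 and 7.23 in WT HFD, and 7.49, 7.41 and 7.47 in KO HFD. The dimmer probe set gave differences of 0.19 for KO against WT on either diet, and -0.20 for HFD against chow in either genotype, none called. Whether the brighter probe set reads a near-identical copy of the gene was not tested.

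**Figure D3:**
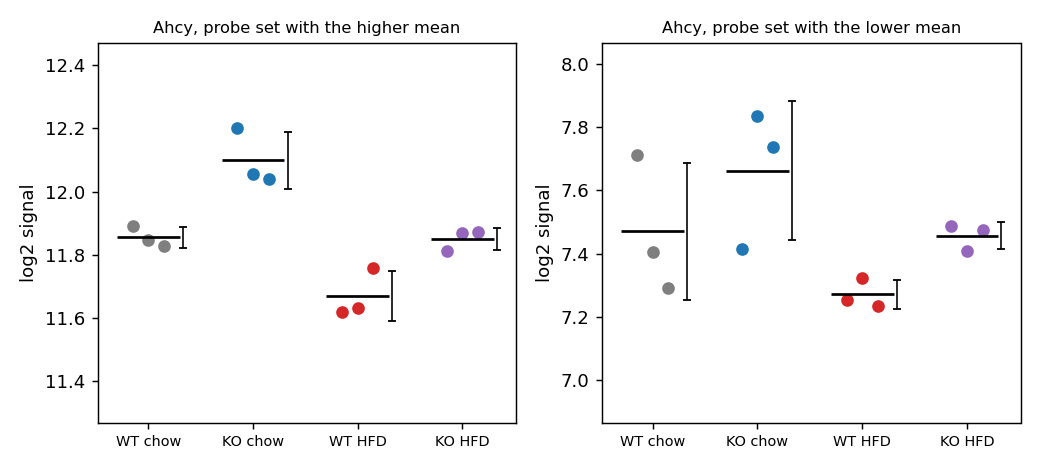
Log2 signal of both Ahcy probe sets on every array, by group, with 3 mice per group. The brighter probe set lies at 11.62 to 12.20 and the dimmer at 7.23 to 7.83, and the lowest group mean is WT HFD for both.

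Bhmt encodes betaine-homocysteine methyltransferase, which returns homocysteine to methionine, and spans chr13:93616891-93637758. WT arrays read 7.30, 6.88 and 6.68 on chow and 6.79, 6.80 and 6.71 on HFD. KO arrays read 7.15, 7.17 and 7.17 on chow and 6.53, 7.16 and 7.12 on HFD. All groups overlapped their neighbours, and the first KO HFD array was the lowest of the 12. No difference was called: KO minus WT on HFD was 0.17 ± 0.17 (interval -0.21 to 0.55, limma adjusted p 0.610). The transcript is known to be abundant in mouse liver, and whether this probe set follows it was not tested. Its paralog Bhmt2, the adjacent probe set in genomic order, was higher in KO than in WT on HFD by 0.31 ± 0.08 (limma adjusted p 0.0261). That Bhmt2 call was lost without any 1 of the WT HFD arrays or the first KO HFD array, with adjusted p up to 0.0849. It was also lost with arrays centred on their medians (0.0689) and with only the arrays compared (0.0882).

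Other genes of the pathway were counted by lists. Of 15 measured partners of the methionine cycle and folate, Bhmt2 alone was called in any comparison, as above, 1 of 15 beside 10.5% of all genes for KO against WT on HFD. Choline dehydrogenase, Chdh, which supplies betaine, was at -0.33 ± 0.09 for HFD against chow in WT (limma adjusted p 0.0538). The list's median for KO against WT on HFD was -0.05.

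Methyltransferases that use S-adenosylmethionine included large changes. Of 8 measured, 1 was called higher and 4 lower in KO than in WT on HFD, where 10.5% of all genes were called. Among the 4 lower, Icmt, named after its values were seen, was at -0.31 (limma adjusted p 0.0352). Its call was lost in 7 of 12 fits that left out 1 array, with adjusted p up to 0.122. It was also lost with the replicate number as a block (0.0585), quantile normalization (0.0714) and only the arrays compared (0.0800). Hnmt, which methylates histamine, read 7.79, 7.74 and 8.02 in WT chow and 9.39, 9.50 and 9.57 in WT HFD. In KO it read 7.94, 8.28 and 8.07 on chow and 7.36, 7.24 and 7.38 on HFD. WT HFD was the highest group and KO HFD the lowest, with no overlap. HFD raised Hnmt in WT by 1.64 ± 0.11 (limma adjusted p 6.75e-06) and lowered it in KO by 0.77 ± 0.11 (limma adjusted p 0.00958). The KO call was lost without the second KO chow or the second KO HFD array, at adjusted p up to 0.0542.

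Inmt, which methylates indoleamines, fell by 1.18 ± 0.16 with HFD in KO (limma adjusted p 0.00685) and was at 0.35 ± 0.16 in WT (adjusted p 0.234). Fitting only the arrays compared left the KO diet difference of both Inmt and Hnmt uncalled, at an adjusted p of 0.0679. On HFD, Inmt was lower in KO than in WT by 1.69 ± 0.16 on the log2 scale (adjusted p 6.63e-05). Gamt, which makes creatine, was lower in KO than in WT on HFD, at -0.88 ± 0.12 (limma adjusted p 0.00066), and As3mt, which methylates arsenic, was higher at 0.66 ± 0.15 (adjusted p 0.0148). The As3mt call was lost without the third WT HFD or the third KO HFD array.

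Among 9 genes of cysteine breakdown and sulfide oxidation, 1 was higher and 2 were lower in KO than in WT on HFD, beside 10.5% of all genes called. Got1, cytosolic aspartate aminotransferase, read 13.31, 12.72 and 12.97 in WT chow and 11.84, 11.91 and 12.34 in WT HFD. It fell by 0.97 ± 0.16 with HFD in WT (limma adjusted p 0.00338) and was 1.07 ± 0.16 higher in KO than in WT on HFD (limma adjusted p 0.00121). Sqor, which oxidises hydrogen sulfide in mitochondria, went the other way. It was higher with HFD in WT by 0.41 ± 0.09 (limma adjusted p 0.0175) and at -0.74 ± 0.09 in KO against WT on HFD (limma adjusted p 0.000349). The WT diet call of Sqor was lost without the third WT chow or the third WT HFD array. Papss2, which makes the sulfate donor, was called lower in KO on HFD at -0.40 ± 0.11 (limma adjusted p 0.0456). With arrays left out in turn, that call was kept only without the first WT chow or the first KO HFD array. It was lost without any 1 of the other 10, with adjusted p up to 0.163, and with only the arrays compared (0.113).

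Of 9 other genes of taurine supply, use and transport, Fmo1 was the single one called, lower in KO than in WT on HFD by 0.39 ± 0.09 on the log2 scale (limma adjusted p 0.0177). A count of 1 of 9 is close to the 10.5% of all genes called in that comparison. Fmo1, a flavin monooxygenase that can oxidise hypotaurine, lost that call without the third WT HFD or the second KO HFD array, at 0.0755 at most. Fitting only the arrays compared also lost it (0.0720). The transporter Slc6a13 was at -0.26 ± 0.09 (adjusted p 0.0797). Slc27a5, the bile acid CoA ligase, was at -0.13 ± 0.07 (adjusted p 0.338). Vnn1 was at -0.26 ± 0.11 in that comparison (limma adjusted p 0.156). For KO against WT on chow, Vnn1 was at -0.47 ± 0.11 with no overlap between arrays (limma adjusted p 0.277).

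Of 12 genes of glutathione synthesis and cystine uptake, 4 were called higher and 1 lower with HFD in WT, where 6.96% of all genes were called. Chac1, which degrades glutathione, rose by 1.46 ± 0.17 (limma adjusted p 0.000529), and the cystine carrier Slc7a11 by 0.58 ± 0.10 (adjusted p 0.0044). The Slc7a11 probe set used read 3.98 to 4.84, below the median of every array, and averaging all its probe sets gave 0.34 (adjusted p 0.0329). Ggct, which acts on gamma-glutamyl amino acids, rose by 0.67 ± 0.12 (limma adjusted p 0.00533). Oplah, 5-oxoprolinase, fell by 0.59 ± 0.08 (limma adjusted p 0.00136). On HFD, KO liver had 4 of the 12 lower and 1 higher than WT, beside 10.5% of all genes called, with Chac1 at -1.13 ± 0.17 (limma adjusted p 0.00154) and Oplah at 0.54 ± 0.08 (adjusted p 0.00148).

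**Figure D4:**
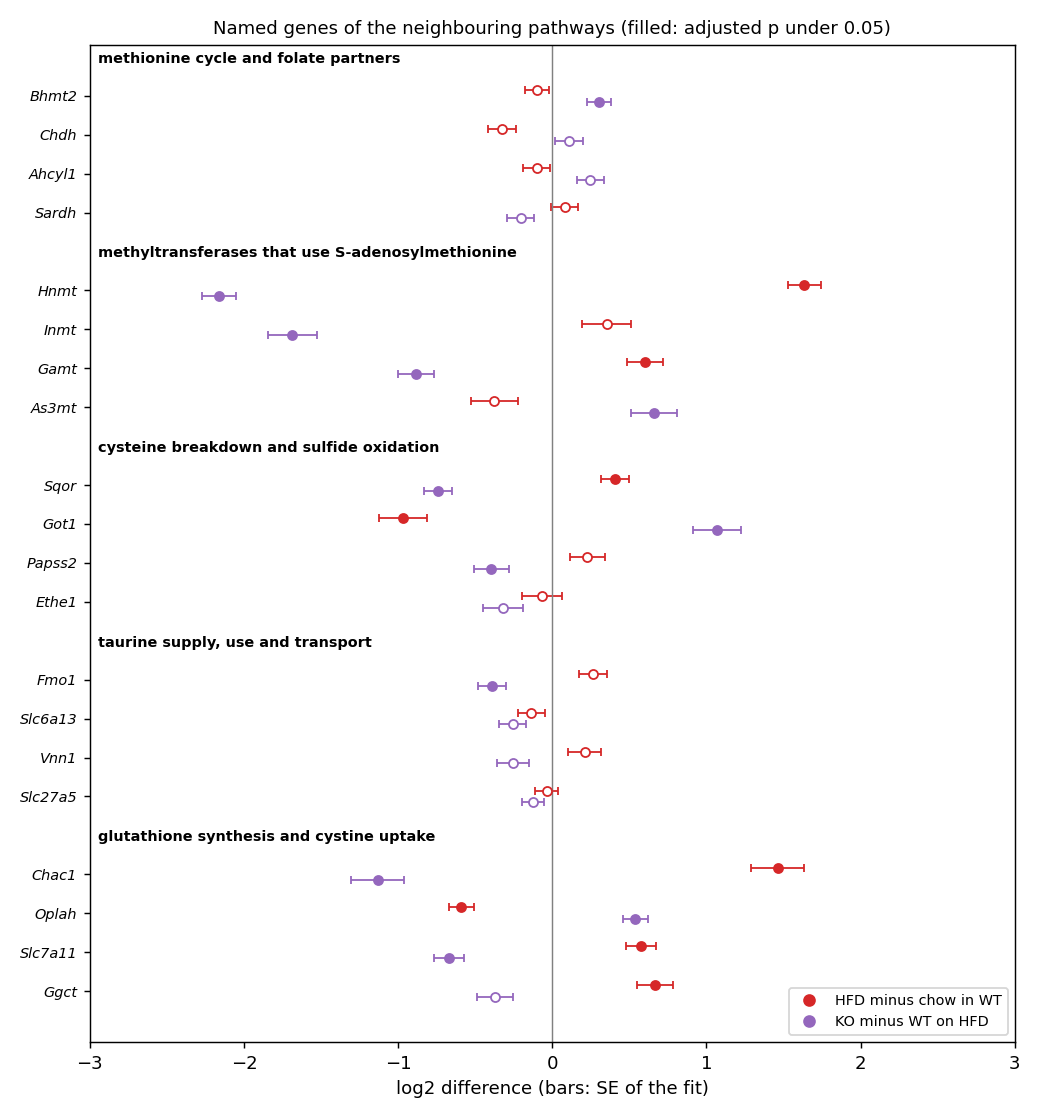
Log2 differences of named pathway genes outside the 9, for KO against WT on HFD and for HFD against chow, filled where called by limma. Hnmt was at -2.16 for KO against WT on HFD and at 1.64 for HFD against chow in WT, while Got1 was at 1.07 and -0.97.

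Regulators linked to these enzymes were also listed. Of 11 measured, 2 were higher and 1 was lower in KO than in WT on HFD, and 1 was lower with HFD in WT. Of all genes, 10.5% and 6.96% were called in these comparisons, and the count with HFD in WT is close to its share. Ppargc1a, a transcriptional coactivator, was 1.19 ± 0.18 higher in KO on HFD (limma adjusted p 0.0015) and fell by 0.76 ± 0.18 with HFD in WT (adjusted p 0.0261). The WT call was lost without any 1 of the WT HFD arrays or the second or the third WT chow array, at 0.0886 at most. Klb, the FGF co-receptor, was 0.46 ± 0.11 higher in KO on HFD (limma adjusted p 0.0235), and Nr0b2, the bile acid-induced repressor SHP, was at -0.95 ± 0.27 (adjusted p 0.0471). The Klb call was lost without any 1 of the WT HFD arrays or the first or the third KO HFD array, at up to 0.0762. With arrays left out in turn, the Nr0b2 call was kept only without the first or the second WT chow array, and otherwise lost at up to 0.154. Trend and robust settings also lost it (0.0820). Nfe2l2, Atf4 and Nr1h4 were not called, at -0.17 ± 0.09, 0.10 ± 0.12 and 0.07 ± 0.09 for KO against WT on HFD. Cebpb, Nr3c1, Fgfr4, Cebpa and Hnf4a were not called in any comparison either. They were at -0.32 ± 0.13, -0.14 ± 0.09, -0.15 ± 0.10, 0.05 ± 0.12 and 0.005 ± 0.08 for KO against WT on HFD.

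Genes with the most similar pattern were taken by the root mean square (RMS) difference of mean-centred log2 signals over the 12 arrays. For Csad, whose own RMS around its mean was 0.83, they were Cyp4a12a and Slco2a1, both at 0.37. Cyp4a12a, a fatty acid hydroxylase with near-identical paralogs, had group means of 9.63 in WT chow, 9.14 in KO chow, 8.11 in WT HFD and 9.17 in KO HFD. For Cth, with an RMS of 0.36, the closest were Asl and Mmp14, both at 0.11. Asl, argininosuccinate lyase of the urea cycle, had means of 12.63, 13.10, 12.04 and 12.66 in the same order. For Cbs they were Zranb1 and Ap2m1, at 0.06 and 0.07 against an RMS of 0.18. For the other 6 genes the smallest differences ran from 0.03 to 0.10. Likeness of pattern is a description over arrays that share groups, with no test.

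Most of the recruited macrophage markers were higher in WT on HFD than on chow. The mean signal of 5 recruited macrophage markers was 6.51 to 7.09 in WT HFD, against 5.97 to 6.13 in WT chow, 6.09 to 6.16 in KO chow and 6.12 to 6.25 in KO HFD. With HFD in WT 4 of the 5 were called higher and 1, Cd9, lower, where 6.96% of all genes were called. The 6 stellate cell markers averaged 9.21 to 9.37 in WT HFD and 8.96 to 9.18 in the other groups. With HFD in WT 1 was called higher (4 at an unadjusted p under 0.05), and all 6 differences were positive. Endothelial markers were at 10.11 to 10.19 in WT HFD and 9.71 to 10.16 elsewhere, overlapping, and 0 of 5 were called by limma with HFD in WT (2 at an unadjusted p under 0.05). Of the Kupffer cell, cholangiocyte and lymphocyte markers, 0 of 6, 0 of 4 and 0 of 4 were called by limma in that comparison (2, 0 and 0 at an unadjusted p under 0.05). With 6.96% of all genes called there, 0 calls in lists of 4 to 6 genes say little about these cell types. The 6 hepatocyte markers averaged 13.34 to 13.37 in WT HFD and 13.37 to 13.48 elsewhere. For HFD against chow in WT, 4 of those 6 had positive differences, the median was 0.02, and the 1 called was Serpina1a, at -0.44 ± 0.09 (limma adjusted p 0.0107). For KO against WT on HFD, 3 of 5 recruited macrophage, 2 of 5 endothelial and 1 of 6 stellate cell markers were called lower. There 1 of 6 hepatocyte markers was called higher, and no Kupffer cell, cholangiocyte or lymphocyte marker was called by limma, beside 10.5% of all genes. At an unadjusted limma p under 0.05 these 3 lists had 2, 0 and 1. Their median differences were -0.37, -0.01 and -0.35, so the lack of calls does not show that they were unchanged. The part of these marker values in the results for Csad, Cth, Cbs and Slc6a6 was not tested.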

How the data were processed

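Log2 signals were used as deposited by the authors for 41345 probe sets on 12 arrays. Per the submitters' processing notes the tool was oligo. Its version and the normalization it applied are not stated in those notes or in the labels. Biotin-labelled total RNA was hybridised, per the labels' protocols. Array medians ran from 5.58 to 5.70, and no further scaling or filter on dim genes was applied. The number of mice limits the precision.

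Of the probe sets, 23521 carried 1 symbol, of which 23328 matched the RefSeq table (GRCm38.p6) by gene number, 1814 carried several and 16010 were unnamed here. This left 22180 genes. All 4 groups were fitted together by limma 3.58.1 in R 4.3.3 (lmFit, eBayes), with Benjamini-Hochberg adjustment within each of 5 comparisons. The code was tested on simulated data.

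The genes and pathway lists were chosen with earlier results of these data known. Picked for naming were the 9 genes, every regulator, and the 2 most similar genes per member. From each other pathway list, up to 4 genes with the smallest p for KO against WT on HFD or HFD against chow in WT were picked. Some of the genes picked are not named above. Separate animals are taken as replicates. The 22 alternatives included leaving out each array, and some were chosen after seeing the data.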

Additional observations from a re-analysis of the deposited data

Results flagged for a closer look

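The effect of HFD differed between WT and KO for 8 of 40 genes by limma's test of the interaction with p adjusted over all genes. Those 40 are the 9 described and 31 pathway genes picked by the naming rule. Of all genes, 3.53% were called. All 11 regulators were named whatever their p, and 0 of them were called for the interaction. The other pathway genes were named for small p values in comparisons that use the same WT HFD arrays, so the counts are not set against each other. Csad had the interaction of 2.16 described above (limma adjusted p 0.000405). Hnmt had the largest interaction of these 8 in size, at -2.41 (adjusted p 1.67e-05), and Inmt was at -1.53 (adjusted p 0.0033). Sqor was at -0.83 (adjusted p 0.00432), Papss2 at -0.81 (adjusted p 0.0181) and Gamt at -0.78 (adjusted p 0.0244). Oplah was at 0.63 (adjusted p 0.0126) and Fmo1 at -0.52 (adjusted p 0.048). A positive value means that HFD minus chow was higher in KO than in WT. The Gamt call was lost without any 1 of the first or the third WT chow, the second or the third KO chow, and the second or the third WT HFD arrays, with adjusted p up to 0.0665, and the Fmo1 call without any 1 of 11 arrays, all but the first KO HFD array, with adjusted p up to 0.113. Fmo1 also lost it with the replicate number as a block, at 0.0784. Each interaction includes the WT HFD arrays that stood apart.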

How the results depend on the processing

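Of 8 called values of the 9 genes, 0 changed direction under 22 alternatives, and Csad's 3 calls and the Cth call in KO against WT on HFD were kept in all. With a required change of 1.5-fold, the count called for HFD against chow in WT was 1 where it had been 4. Calls over all genes in that comparison went from 1543 to 674. Leaving out arrays in turn gave 1 to 4 of the 9 for HFD against chow in WT, beside 815 to 1691 of all genes. For KO against WT on HFD it gave 2 to 3, beside 1506 to 2326 of all genes. Trend and robust settings gave 1 call for HFD against chow in KO and 2 for the interaction, and testing only genes above the median signal gave 1 for HFD against chow in KO, all of the added calls being Gnmt. Calls over all genes also rose with trend and robust settings, from 54 to 124 and from 783 to 1201. Testing above the median signal gave 124 calls for HFD against chow in KO. Trend and robust settings also added Mat1a for KO against WT on HFD (adjusted p 0.00299) and Cdo1 for HFD against chow in WT (0.0454), and the genes above the median signal added Mat1a (0.0244). Of 990 single values, 963 kept their side of the threshold, 21 lost a call and 6 gained one, and 10 uncalled values changed sign. Most were uncalled to begin with, since 8 of 45 values were called with the settings used throughout. All 21 losses were of the Slc6a6, Cbs and Cth calls. Averaging probe sets, or using the other Ahcy one, cannot alter the differences of genes with 1 probe set. The count of 963 therefore says little about how firm the calls are. Same-numbered mice did not deviate together (r from -0.06 to 0.08 over 18 pairs), so numbers were not used as pairs, and the replicate block gave 0, 3, 4, 0 and 1 members called. Beside these, it gave 0, 2073, 1290, 40 and 612 calls over all genes. Of 37 called values of pathway genes, 18 were lost under at least 1 alternative. The use of the other Ahcy probe set, and the alternatives for pathway genes, were chosen after seeing the data.

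Over all genes, calls were 2 for KO against WT on chow, with 0 under the replicate block and 19 above the median signal. They were 2331 for KO against WT on HFD (985 at 1.5-fold), 1543 for HFD against chow in WT (674 at 1.5-fold, 815 without the third WT chow array), 54 in KO (21 with only the arrays compared, 124 with trend settings) and 783 for the interaction (1394 above the median signal, 432 without the second KO chow array). Centring arrays moved the split of higher to lower calls from 862 and 1469 to 545 and 1937 for KO against WT on HFD, from 891 and 652 to 1089 and 457 for HFD against chow in WT, and from 318 and 465 to 221 and 623 for the interaction.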

Other observations

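Zonation markers were also measured. The mean of 7 pericentral hepatocyte markers was 10.84 to 11.14 over all arrays, with 2 called higher and 1 lower in KO than in WT on HFD (10.5% of all genes called), 1 higher with HFD in WT (6.96%) and 1 lower in the interaction (3.53%). The 5 measured periportal markers averaged 11.68 to 11.79 in WT HFD, 11.79 to 12.10 in WT chow, 11.72 to 11.99 in KO chow and 11.32 to 11.82 in KO HFD, with 1 called lower in KO than in WT on HFD and 0 called by limma with HFD in WT (1 at an unadjusted p under 0.05).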
